A study of Mus musculus with 8 samples.

Results

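Cells answer misfolded protein with separate programmes for separate compartments. In the endoplasmic reticulum (ER) the sensors PERK, IRE1 and ATF6 start the unfolded protein response: ATF6 and spliced XBP1 induce ER chaperones and the machinery that sends misfolded protein out for degradation, while PERK raises translation of the transcription factor ATF4, whose targets include CHOP and enzymes of amino acid supply. In the cytosol the heat shock factor HSF1 induces cytosolic chaperones, and the mitochondrion holds a folding chamber of its own, the HSP60-HSP10 chaperonin. The proximal tubule, the bulk of the renal cortex, makes much secreted and membrane protein and is rich in mitochondria, so each of these systems is known to be active in the kidney.

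The 39 genes described here were chosen by name for these roles and were all found among the 34745 genes of the deposited table. They comprised 14 ER chaperones and folding enzymes, 5 genes of ER-associated degradation (ERAD), 5 sensors and transcription factors of the unfolded protein response, 5 targets of ATF4 or CHOP, 7 cytosolic heat shock genes, the heat shock factor gene Hsf1 and the 2 genes of the mitochondrial chaperonin. Messenger RNA of renal tissue from mice labelled WT was sequenced at day 14 in 3 groups. Kidneys labelled uIRI with transplantation of MSCs (here uIRI+MSC) gave 3 libraries, kidneys labelled uIRI alone gave 3, and sham kidneys gave 2. In kidney research uIRI is a usual short form of unilateral ischaemia-reperfusion injury, and MSC of mesenchymal stem or stromal cell. The labels spell out neither term and give no age, sex, source of the cells, dose or time of transplantation. Nor do they tie each library to an animal of its own, so p-values measure only the spread between these samples.

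Library totals lay between 11.59 and 24.3 (in 1e6 counts). All 39 genes had enough counts to be tested. The 39 genes together took 0.752 to 0.848% of the counts in uIRI+MSC, 0.783 to 0.893% in uIRI and 0.832 to 0.906% in sham. RNA composition moved with the groups. Transcripts of mitochondrial DNA were 6.07 to 11.3% of the counts in uIRI+MSC, 3.49 to 4.84% in uIRI and 14.2% in both sham libraries. Of 8 proximal tubule markers all were detected in every library, and their summed level ran from 8465 to 10201 counts per 1e6 (CPM) in uIRI+MSC, from 1658 to 5555 CPM in uIRI and from 26621 to 29454 CPM in sham. The 8 macrophage markers summed to 1710 to 2361 CPM in uIRI+MSC, 3009 to 4630 CPM in uIRI and 214 to 255 CPM in sham. The 8 fibroblast markers summed to 2131 to 3916 CPM in uIRI+MSC, 3595 to 8524 CPM in uIRI and 312 to 443 CPM in sham. The 8 injured tubule markers summed to 11139 to 16301 CPM in uIRI+MSC, 5906 to 8316 CPM in uIRI and 972 to 1355 CPM in sham. In uIRI+MSC against uIRI only 4 of these 8 had a positive log2 change (-0.84 to 1.51, median 0.14), and none was called. The 8 plasma cell markers summed to 126 to 133 CPM in uIRI+MSC, 156 to 209 CPM in uIRI and 33.1 to 46.0 CPM in sham, and one of them, Tnfrsf17, was at 0 in uIRI+MSC 1 and 2 and in both sham libraries. Of the 7 plasma cell markers tested, 5 were called higher and 1 lower in uIRI against sham. The part of these shifts in the results was not tested, and in bulk tissue fewer cells of a type and less RNA per cell cannot be told apart.

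CPM values below are scaled by TMM, which sets the bulk of genes to no change between libraries. A gene was called when the edgeR quasi-likelihood test gave an adjusted p (Benjamini-Hochberg over 16576 genes) of 0.05 or less. The choice of scaling matters for these genes. Scaled by library size alone, the median gene moved by 0.55 on the log2 scale in uIRI+MSC and by 0.73 in uIRI relative to sham, where TMM gave 0.03 and 0.06. Called members whose direction turned under that scaling are named as they arise. Of all tested genes it called 44.6% higher and 8.16% lower in uIRI+MSC, and 54.5% higher and 12% lower in uIRI, against sham.

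In uIRI kidney, relative to sham, 16 of the 39 members fell and 3 rose, while 20 did not pass the test. All the same, 26.3% of all tested genes fell and 28.3% rose in this comparison, and the median log2 change of the members was -0.29 against 0.06 for all genes. The falls lay among ER chaperones (6 of 14), ERAD genes (5 of 5), cytosolic heat shock genes (3 of 7) and the mitochondrial chaperonin (2 of 2). The rises were Hspb1 and Hspa1b, both cytosolic heat shock genes too, and the ATF4 target Asns. The split was 15 higher and 5 lower with library size alone, and the falls left were those of Dnajc3, Herpud1, Edem1, Hsph1 and Hspd1. Those shares of the members lie below the background for rises and near it for falls. These 5 falls and the rise of Hspb1 were called under each of 16 alternative settings. Without sham 1 the number of falls was 7, where 17.6% of all tested genes fell and 19.4% rose.

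**Figure D1:**
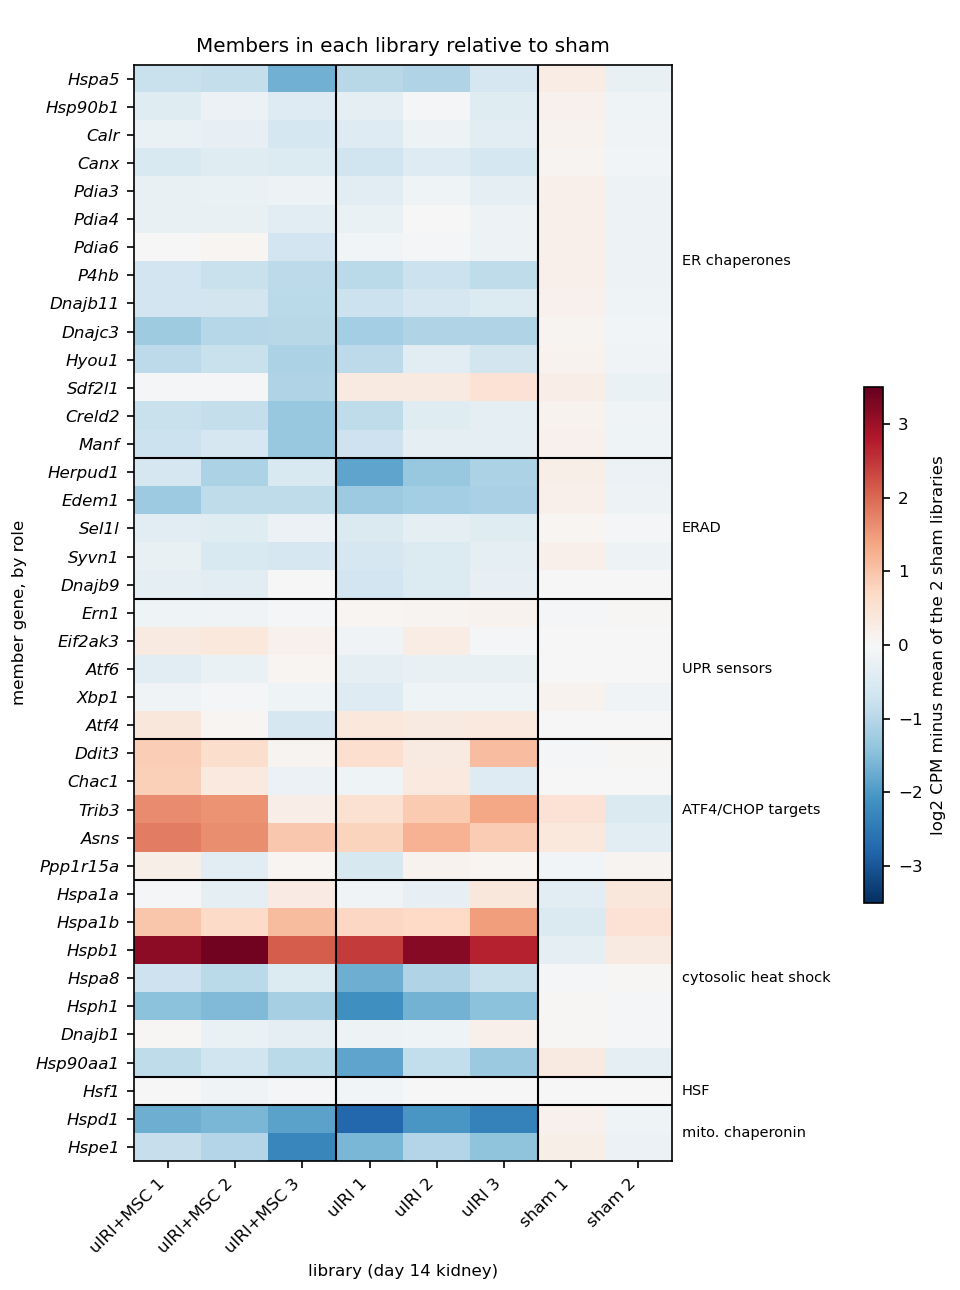
The 39 members (down the page, by role) in the 8 libraries (across), as log2 CPM minus the mean of the 2 sham libraries, with red above sham and blue below. Hspb1 was the reddest gene in every uIRI+MSC and uIRI column and Hspd1 the bluest in all of them but uIRI+MSC 3, where Hspe1 was, and the ER chaperones were mostly pale to mid blue under the TMM scaling shown; with library size alone their median in uIRI against sham was 0.17.

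In uIRI+MSC kidney 2 members were higher than in sham, 15 lower and 22 not called, where 22.1% of all tested genes rose and 20.3% fell. The median log2 change was -0.33 for the members and 0.03 for all genes. Both comparisons used the same sham libraries. Hspb1 and Asns were the 2 higher members. The split was 9 higher and 4 lower with library size alone, and without sham 1 the number of falls was 4, where 8.97% of all tested genes fell and 13.8% rose. Dnajc3, Edem1, Hsph1 and Hspd1 were lower, and Hspb1 higher, under each of the 16 settings.

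Between uIRI+MSC and uIRI kidneys no member was called (0% of all tested genes passed in either direction). In that comparison 3418 genes, 20.6% of those tested, had an unadjusted p under 0.05, and 3 members were among them, namely Hspd1, Herpud1 and Sdf2l1. Of the 39 members 22 had a positive log2 change, with a median of 0.06, and the extremes were Sdf2l1 at -0.68 and Herpud1 at 0.68. DESeq2 called 794 genes higher (4.79%) and 570 lower (3.44%). Hspd1 was the only member among them, with a log2 change of 0.61 (adjusted p = 0.047). Limma-voom called none, with 3659 genes at an unadjusted p under 0.05.

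**Figure D2:**
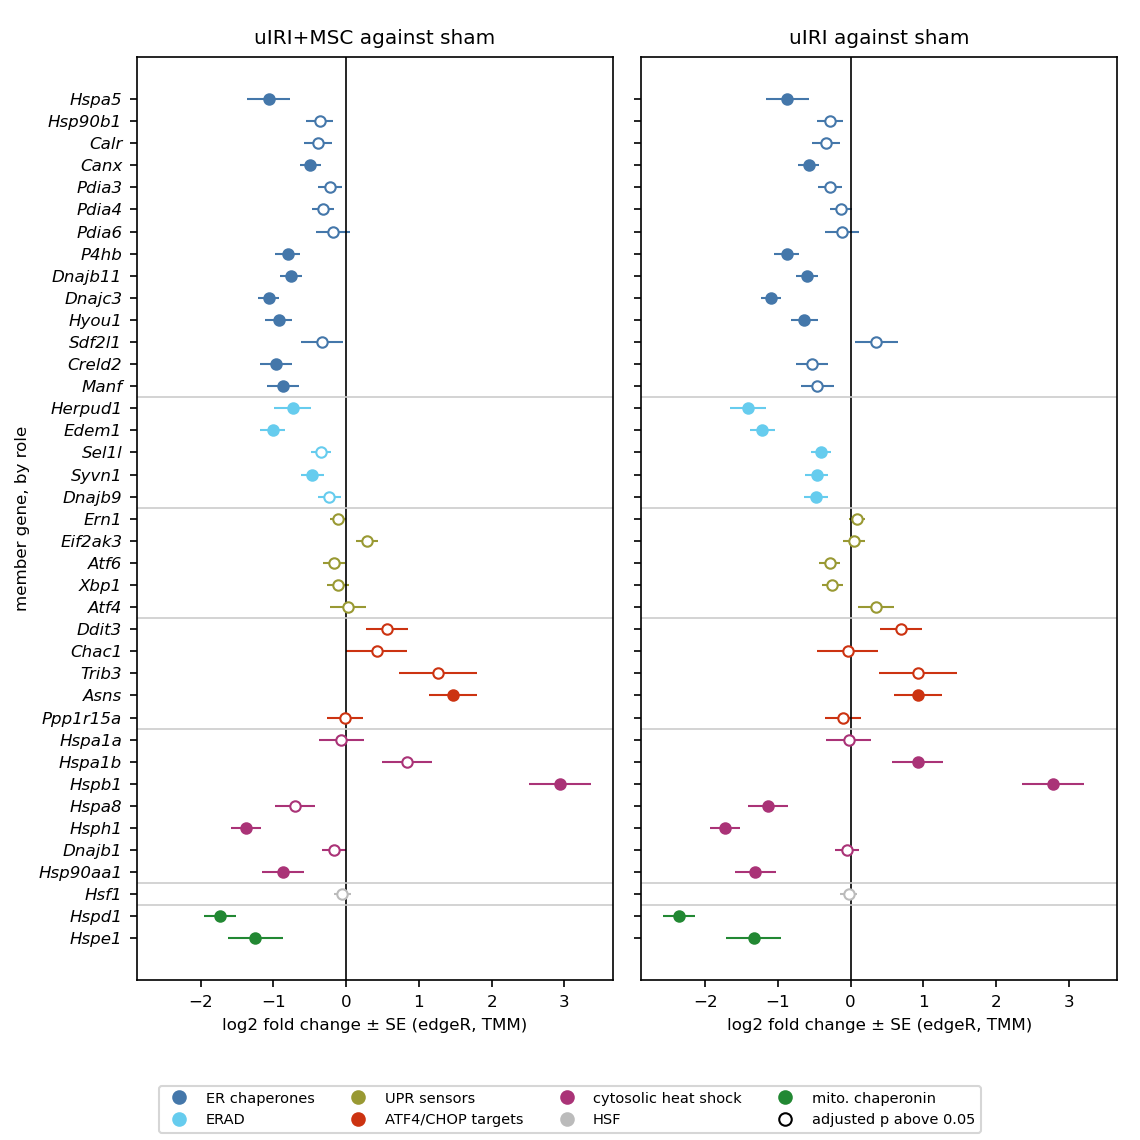
Log2 fold change ± SE (edgeR, TMM scaling) of each member in uIRI+MSC against sham (left, n = 3 and 2) and uIRI against sham (right, n = 3 and 2), coloured by role, with filled circles at an adjusted p of 0.05 or less. Filled circles lie left of 0 for ER chaperones, ERAD and the mitochondrial chaperonin and on both sides of 0 for the cytosolic heat shock genes; with library size alone only Dnajc3, Herpud1, Edem1, Hsph1 and Hspd1 stayed called on the left of 0 in uIRI against sham.

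Several promoters of the ER genes carry the binding site known for this response. The ER stress response element (ERSE) is CCAAT, then 9 bases of any kind, then CCACG, bound by NF-Y at its first part and by ATF6 or XBP1 at its last. In RefSeq's promoters (GRCm38.p6, 250 bases before to 50 after a gene's start), which matched 33 of the 39 members (all but Atf6, Hsf1, Hspa8, Hsp90aa1, Hyou1 and Manf), it was found on either strand in 8 members and in 0.12% of all 32544 promoters. These were 7 of the 12 ER chaperones with a promoter, and the ERAD gene Syvn1. The sites are shown because this is the motif that ATF6 and XBP1 are known to bind. It was not found in the windows of Pdia3, Pdia4, P4hb, Dnajb11 or Sdf2l1. Each is read along the motif, with its fixed letters in capitals.
Hspa5 (chr2:34772025-34772043, + strand): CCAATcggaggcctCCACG
Calr (chr8:84847075-84847093, + strand): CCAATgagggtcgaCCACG
Canx (chr11:50325800-50325818, - strand): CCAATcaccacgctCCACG
Pdia6 (chr12:17266491-17266509, + strand): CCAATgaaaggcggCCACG
Dnajc3 (chr14:118937827-118937845, + strand): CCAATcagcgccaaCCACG
Creld2 (chr15:88819520-88819538, - strand): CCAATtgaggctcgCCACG
Syvn1 (chr19:6046532-6046550, + strand): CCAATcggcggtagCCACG
Hsp90b1, upstream site (chr10:86705638-86705656, - strand): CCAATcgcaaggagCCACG
Hsp90b1, downstream site (chr10:86705533-86705551, + strand): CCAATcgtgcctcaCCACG
The 250 bases before the start of Hspa5 (chr2:34771840-34772089, + strand), the gene of the master ER chaperone BiP, show the site in place, in capitals.
Hspa5: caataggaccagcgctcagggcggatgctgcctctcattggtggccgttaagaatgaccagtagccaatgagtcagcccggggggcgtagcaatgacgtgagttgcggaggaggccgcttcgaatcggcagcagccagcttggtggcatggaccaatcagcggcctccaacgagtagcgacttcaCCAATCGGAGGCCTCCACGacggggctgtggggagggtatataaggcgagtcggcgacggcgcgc

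Among the 17 ER chaperone and ERAD members with a promoter, falls occurred with and without the match. Of the 8 with the ERSE 4 were lower in uIRI than in sham and 5 in uIRI+MSC than in sham. Of the 9 without it 6 were lower in uIRI and 4 in uIRI+MSC. Of all tested genes 26.3% fell in uIRI and 20.3% in uIRI+MSC. With library size alone only Dnajc3 of the 8, and Herpud1 and Edem1 of the 9, stayed lower in uIRI. Only the exact 19-base string counted as a match. Genes with CCAAT and CCACG in another arrangement, such as Herpud1, therefore stand among the 9 without it. The core of another element of this response, TGACGTGG, was in none of the 33 promoters and in 0.682% of all promoters.

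Hspa5, which encodes BiP (GRP78), the ER member of the HSP70 family and the chaperone that holds the sensors inactive, was lower in both injured groups. It had 491, 470 and 259 CPM in uIRI+MSC 1, 2 and 3, 429, 406 and 561 CPM in uIRI 1, 2 and 3, and 997 and 705 CPM in sham 1 and 2. Every library of uIRI+MSC and of uIRI lay below both sham libraries. The log2 change was -1.07 ± 0.30 in uIRI+MSC (adjusted p = 0.0191) and -0.87 ± 0.30 in uIRI against sham (adjusted p = 0.0338, edgeR). These calls were among the less stable ones. Without sham 1 they were lost (-0.76, adjusted p = 0.172, in uIRI+MSC and -0.58, adjusted p = 0.253, in uIRI), as they were with library size alone (-0.54 and -0.19), and the uIRI call was lost without uIRI 1 (adjusted p = 0.076) or uIRI 2 (adjusted p = 0.0911).

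The DnaJ co-chaperones of BiP fell too. Dnajc3 encodes p58IPK, which also restrains PERK, and it gave the steadiest fall among the ER chaperones. Its level was 139, 166 and 169 CPM in uIRI+MSC, 146, 159 and 159 CPM in uIRI, and 354 and 307 CPM in sham. The injured libraries stood within a narrow band at about the same level with and without MSC, well clear of sham. Its log2 change was -1.07 ± 0.14 in uIRI+MSC (adjusted p = 0.000731) and -1.10 ± 0.14 in uIRI (adjusted p = 0.000335, edgeR), and it was still called with library size alone (-0.55 and -0.43). Dnajb11, which encodes ERdj3, had 98.3, 102 and 82.0 CPM in uIRI+MSC, 94.2, 106 and 113 CPM in uIRI, and 174 and 143 CPM in sham. The groups did not overlap with sham, and the log2 changes of -0.76 ± 0.15 and -0.60 ± 0.15 passed (adjusted p = 0.00492 and 0.01, edgeR). Both calls were lost without sham 1 (-0.57 and -0.43) and with library size alone, where uIRI turned to 0.07.

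Of the lectin chaperones and disulphide isomerases, which fold glycoproteins and form their disulphide bonds, P4hb and Canx fell. P4hb, the gene of protein disulphide isomerase, had 678, 633 and 576 CPM in uIRI+MSC, 563, 646 and 583 CPM in uIRI, and 1222 and 971 CPM in sham. Canx, the gene of calnexin, had 413, 445 and 428 CPM in uIRI+MSC, 372, 444 and 395 CPM in uIRI, and 643 and 562 CPM in sham. Both genes were lower in every injured library than in either sham library. P4hb changed by -0.80 ± 0.17 (adjusted p = 0.00599) and -0.88 ± 0.17 (adjusted p = 0.00254), and Canx by -0.49 ± 0.15 (adjusted p = 0.0274) and -0.58 ± 0.15 (adjusted p = 0.0103), in uIRI+MSC and in uIRI (edgeR). Neither gene was called with library size alone, and Canx stood at 0.03 and 0.09. Without sham 1 the uIRI+MSC call of P4hb was lost (-0.59, adjusted p = 0.0764), as was the Canx call in uIRI (-0.45, adjusted p = 0.103). In uIRI+MSC the Canx call was also lost without any one of the 3 uIRI+MSC or the 2 sham libraries (-0.55 to -0.36, adjusted p = 0.0578 to 0.224).

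Hyou1, Creld2 and Manf encode smaller or accessory ER proteins, namely a BiP exchange factor, a disulphide isomerase-like protein and a secreted stress protein. Hyou1 had 85.3, 93.8 and 74.4 CPM in uIRI+MSC, 84.6, 123 and 102 CPM in uIRI, and 175 and 147 CPM in sham. Creld2 had 28.8, 27.9 and 19.98 CPM in uIRI+MSC, 26.8, 37.2 and 40.1 CPM in uIRI, and 54.7 and 45.6 CPM in sham. Manf had 65.7, 74.1 and 44.4 CPM in uIRI+MSC, 67.7, 88.7 and 88.6 CPM in uIRI, and 123 and 102 CPM in sham. In all 3 genes the injured libraries lay below sham and those of uIRI+MSC overlapped with those of uIRI. The log2 changes in uIRI+MSC against sham were -0.93 ± 0.18 for Hyou1, -0.97 ± 0.22 for Creld2 and -0.87 ± 0.22 for Manf (adjusted p = 0.00427, 0.0079 and 0.0142, edgeR). In uIRI against sham Hyou1 changed by -0.64 ± 0.18 (adjusted p = 0.0171), whereas Creld2 (-0.53 ± 0.22, adjusted p = 0.0674) and Manf (-0.46 ± 0.22, adjusted p = 0.114) did not pass, though both did without uIRI+MSC 3 (adjusted p = 0.0479 and 0.0497). None of these calls held with library size alone (Hyou1, Creld2 and Manf at 0.03, 0.13 and 0.21 in uIRI), and without sham 1 the uIRI+MSC changes were -0.76, -0.80 and -0.69 (adjusted p = 0.0552, 0.0826 and 0.13) and that of Hyou1 in uIRI was -0.48 (adjusted p = 0.151). Manf lies over other annotated genes, among them 6511 bases of Rbm15b on the same strand, so its reads may be shared.

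The other 6 ER chaperones were not called in any comparison with TMM scaling. They were Hsp90b1 (GRP94), Calr (calreticulin), Pdia3, Pdia4, Pdia6 and Sdf2l1, a partner of ERdj3. Their log2 changes ran from -0.38 (Calr) to -0.18 (Pdia6) in uIRI+MSC and from -0.33 (Calr) to 0.35 (Sdf2l1) in uIRI against sham. Sdf2l1 was the one ER chaperone with a positive value in uIRI. It had 23.8, 24.5 and 12 CPM in uIRI+MSC, 30.9, 30.9 and 35.4 CPM in uIRI, and 29.6 and 21.2 CPM in sham. All 3 uIRI+MSC libraries were below all 3 uIRI libraries, with a log2 difference of -0.68 ± 0.26 that did not pass (unadjusted p under 0.05, adjusted p = 0.193, edgeR). Over the group the median log2 change was -0.62 in uIRI+MSC and -0.50 in uIRI against sham, and with library size alone it was -0.10 and 0.17. Under that scaling all 6 uncalled genes were positive in both groups, among them Hsp90b1 (0.16 and 0.39), Calr (0.14 and 0.34) and Pdia6 (0.35 and 0.55). In uIRI 3 were called higher, namely Pdia3 (0.39, adjusted p = 0.0416), Pdia4 (0.54, adjusted p = 0.00911) and Sdf2l1 (1.03, adjusted p = 0.0147). Of all tested genes 54.5% rose in uIRI under the same scaling.

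All 5 ERAD genes were lower in uIRI than in sham, with a median log2 change of -0.48. Herpud1, an ERAD scaffold, and Edem1, which marks misfolded glycoproteins for disposal, fell most. Herpud1 had 189, 133 and 199 CPM in uIRI+MSC, 79.9, 114 and 132 CPM in uIRI, and 329 and 250 CPM in sham. Its groups stood in 3 tiers, with uIRI+MSC between uIRI and sham and no overlap of any pair. The log2 change was -0.74 ± 0.25 in uIRI+MSC (adjusted p = 0.0434) and -1.41 ± 0.25 in uIRI against sham (adjusted p = 0.0016), and the difference of uIRI+MSC from uIRI, 0.68 ± 0.23, did not pass (adjusted p = 0.16, edgeR). The uIRI+MSC call against sham was lost with library size alone (-0.22, adjusted p = 0.436) and without any one of 6 libraries, namely uIRI 2, uIRI+MSC 1, 2 or 3 and sham 1 or 2 (-0.88 to -0.49, adjusted p = 0.054 to 0.302).

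Edem1 had 80.3, 105 and 104 CPM in uIRI+MSC, 79.0, 84.4 and 88.3 CPM in uIRI, and 220 and 169 CPM in sham. Both injured groups lay far below sham and overlapped each other. On the log2 scale it changed by -1.01 ± 0.17 in uIRI+MSC (adjusted p = 0.00199) and -1.21 ± 0.17 in uIRI (adjusted p = 0.000449, edgeR), and both calls held with library size alone (-0.49 and -0.54).

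The membrane core of ERAD and its BiP partner moved less. Sel1l, the adaptor of the ubiquitin ligase, had 136, 134 and 157 CPM in uIRI+MSC, 127, 146 and 136 CPM in uIRI, and 188 and 173 CPM in sham. Syvn1, the gene of that ligase (HRD1), had 59.0, 49.2 and 47.1 CPM in uIRI+MSC, 47.5, 50.7 and 57.1 CPM in uIRI, and 79.8 and 63.1 CPM in sham. Dnajb9 (ERdj4), which delivers BiP to its clients and to IRE1, had 55.3, 51.7 and 67.6 CPM in uIRI+MSC, 42.8, 48.8 and 55.9 CPM in uIRI, and 67.7 and 69.0 CPM in sham. Sham was highest throughout, but for Dnajb9 the third uIRI+MSC library reached almost the lower sham value. In uIRI the log2 changes were -0.41 ± 0.13, -0.47 ± 0.16 and -0.48 ± 0.16 (adjusted p = 0.0296, 0.035 and 0.0328, edgeR), and all 3 turned with library size alone (0.26, 0.21 and 0.19). In uIRI+MSC only Syvn1 passed (-0.46 ± 0.16, adjusted p = 0.0451), at 0.06 with library size alone and lost without any single library but uIRI+MSC 1 (-0.59 to -0.25, adjusted p = 0.0515 to 0.396). The uIRI calls were lost without sham 1 (-0.32, -0.27 and -0.47, adjusted p = 0.193, 0.325 and 0.132) or uIRI 1 (adjusted p = 0.0762, 0.0991 and 0.0964), for Syvn1 and Dnajb9 without uIRI 2 (adjusted p = 0.0831 and 0.0738), for Sel1l without uIRI 3 (adjusted p = 0.0755) and for Sel1l and Dnajb9 without sham 2 (adjusted p = 0.0816 and 0.142).

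None of the 5 sensors and transcription factors was called in any comparison. They were Ern1 (IRE1), Eif2ak3 (PERK), Atf6, Xbp1 and Atf4, and their log2 changes ran from -0.16 to 0.28 in uIRI+MSC and from -0.29 to 0.35 in uIRI against sham. Ern1 was the most even, with 48.5 to 51.8 CPM in uIRI+MSC, 56.8 to 58.9 CPM in uIRI and 52.5 and 56.0 CPM in sham. Atf4 had 122, 96.7 and 60.8 CPM in uIRI+MSC, 119, 115 and 116 CPM in uIRI, and 92.7 and 90.6 CPM in sham. All uIRI values of Atf4 were above sham, while those of uIRI+MSC spread from below sham to just above uIRI. Its change in uIRI, 0.35 ± 0.25, did not pass (adjusted p = 0.26, edgeR) but did without uIRI+MSC 3 (adjusted p = 0.0345) or with uIRI and sham alone in the fit (adjusted p = 0.0212). All 5 were called higher in uIRI with library size alone (median 0.71) and 3 in uIRI+MSC (median 0.41). Under that scaling 54.5% of all tested genes rose in uIRI and 44.6% in uIRI+MSC. The median gene moved by 0.73 and 0.55, so the medians of these 5 did not exceed the general shift. These genes are controlled largely after transcription, by translation, splicing or cleavage, which gene counts do not show.

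Of the 5 targets of ATF4 and CHOP 1, Asns, rose in both injured groups, and the other 4 were not called. Their median log2 change was 0.56 in uIRI+MSC and 0.70 in uIRI against sham, with 4 and 3 of the 5 above 0. In both, 3 of 5 were called with library size alone, with medians of 1.07 and 1.36. Under that scaling 44.6% of all tested genes rose in uIRI+MSC and 54.5% in uIRI. The element bound by ATF4 with C/EBP partners (CARE) was searched as TGATGNAA on both strands, and stood in the promoters of Asns, Chac1 and Trib3 among these 5, in Herpud1 among the other members, and in 3.91% of all promoters. It is shown for the 4 members that carry it, read along the motif with fixed letters in capitals.
Asns (chr6:7693225-7693232, - strand): TGATGaAA
Chac1 (chr2:119351049-119351056, - strand): TGATGcAA
Trib3 (chr2:152344039-152344046, + strand): TGATGtAA
Herpud1 (chr8:94386317-94386324, - strand): TGATGcAA
The 250 bases before the start of Asns (chr6:7693210-7693459, - strand), the target that was called, hold the site in capitals near their end.
Asns: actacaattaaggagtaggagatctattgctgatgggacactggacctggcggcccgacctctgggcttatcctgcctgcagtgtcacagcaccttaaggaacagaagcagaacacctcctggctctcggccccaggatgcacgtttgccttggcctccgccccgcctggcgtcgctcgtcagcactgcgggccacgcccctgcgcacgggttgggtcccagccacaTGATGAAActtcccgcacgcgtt

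Asns encodes asparagine synthetase. It had 23.6, 21 and 12.9 CPM in uIRI+MSC, 11.5, 15.6 and 12.4 CPM in uIRI, and 8.74 and 5.15 CPM in sham. Every injured library was above both sham libraries, and the first 2 of uIRI+MSC were above all of uIRI. Its log2 change was 1.47 ± 0.33 in uIRI+MSC (adjusted p = 0.00762) and 0.93 ± 0.32 in uIRI against sham (adjusted p = 0.0385, edgeR), and the difference between uIRI+MSC and uIRI, 0.54 ± 0.27, did not pass (adjusted p = 0.296). Without sham 2 neither call held (1.17, adjusted p = 0.0565, and 0.62, adjusted p = 0.221). The uIRI call was also lost without uIRI 2 (adjusted p = 0.0978), uIRI 3 (adjusted p = 0.0607) or uIRI+MSC 2 (adjusted p = 0.0513), and with limma-voom (adjusted p = 0.0578).

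Ddit3, the CHOP gene, had 20.9, 17.6 and 12.3 CPM in uIRI+MSC, 17.3, 14.5 and 24.6 CPM in uIRI, and 11.2 and 11.96 CPM in sham. Its injured libraries were all above sham, with log2 changes of 0.56 ± 0.29 (adjusted p = 0.153) and 0.70 ± 0.29 (adjusted p = 0.0688) that did not pass with edgeR. The uIRI change was called without uIRI 2 (0.86, adjusted p = 0.0422) or uIRI+MSC 3 (0.72, adjusted p = 0.0368). Trib3, a pseudokinase induced by CHOP, stood at 1.76 to 4.85 CPM in uIRI+MSC, 2.19 to 3.95 CPM in uIRI, and 2.14 and 1.01 CPM in sham, with log2 changes of 1.26 ± 0.54 and 0.93 ± 0.54 that did not pass (adjusted p = 0.0905 and 0.172). Trib3 passed in uIRI+MSC without uIRI+MSC 3 (1.62, adjusted p = 0.0232). Chac1, which degrades glutathione, and Ppp1r15a (GADD34), which reverses the PERK signal, stayed between -0.10 and 0.42 in log2 change against sham.

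**Figure D3:**
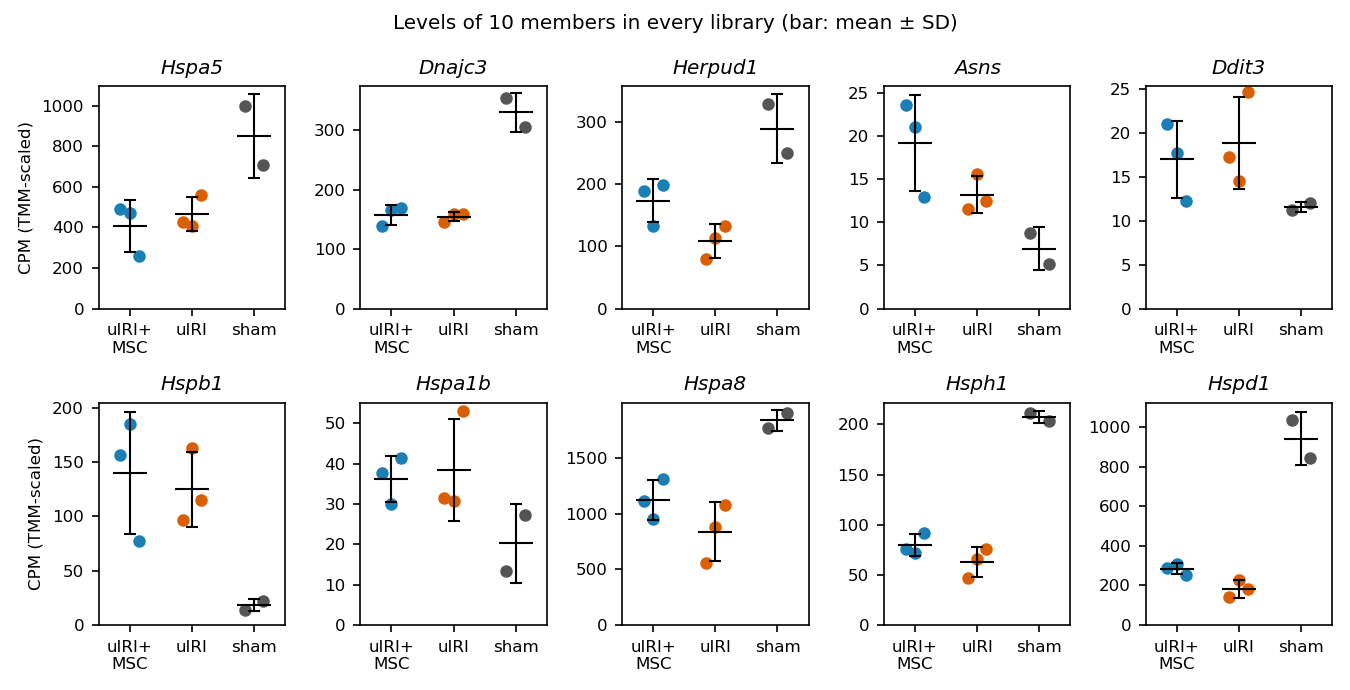
TMM-scaled CPM of 10 members (1 panel each, axes from 0) in every library of uIRI+MSC (n = 3), uIRI (n = 3) and sham (n = 2), as points, with the group mean ± SD as bars. Hspb1, Asns, Ddit3 and Hspa1b sat above sham in every injured library, and Hspa5, Dnajc3, Herpud1, Hspa8, Hsph1 and Hspd1 sat below it. With TMM scaling Ddit3 was not called against sham, Hspa1b was called in uIRI only, and so was Hspa8. The gap of Hspa5 and Hspa8 was not called with library size alone, nor was that of Herpud1 in uIRI+MSC.

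The cytosolic heat shock genes split. Hspb1 rose, Hspa1b rose in uIRI, Hsph1 fell, Hspa8 and Hsp90aa1 fell in uIRI and Hsp90aa1 in uIRI+MSC as well, and Hspa1a, Dnajb1 and Hsf1 were not called. Hspb1 encodes the small heat shock protein HSP25, which binds unfolded protein and actin and is known as a marker of stressed tubule. It had 156, 186 and 77.0 CPM in uIRI+MSC, 96.7, 163 and 115 CPM in uIRI, and 14.2 and 22.3 CPM in sham. The lowest injured library was still more than 3 times the higher sham library, and both injured groups overlapped. The log2 change was 2.94 ± 0.43 in uIRI+MSC (adjusted p = 0.00107) and 2.78 ± 0.43 in uIRI against sham (adjusted p = 0.000739, edgeR), or 7.66-fold and 6.86-fold. In FPKM, which sets genes on 1 scale per length, Hspb1 was 29th of the 39 members in sham with 7.38, and averaged 80.5 in uIRI+MSC and 79.3 in uIRI.

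Hspa1a and Hspa1b encode the inducible HSP70 and are near-identical copies. Of 50-base windows of the Hspa1b coding sequence 82.2% occur in Hspa1a, so how reads were split between them is uncertain. Hspa1b had 37.6, 30.1 and 41.3 CPM in uIRI+MSC, 31.5, 30.9 and 53.0 CPM in uIRI, and 13.3 and 27.2 CPM in sham, while Hspa1a had 12.1 to 18.6 CPM in uIRI+MSC, 12.4 to 20.1 CPM in uIRI, and 11.6 and 19.97 CPM in sham. Only Hspa1b separated from sham. Its log2 change was 0.84 ± 0.35 in uIRI+MSC (adjusted p = 0.0813) and 0.92 ± 0.35 in uIRI (adjusted p = 0.0494, edgeR), and the uIRI call was lost without uIRI 3 (0.62), any of uIRI+MSC 1, 2 or 3 (0.92 to 0.94) or sham 1 (0.52), with adjusted p from 0.0564 to 0.289. In uIRI+MSC it was called without sham 2 (1.48, adjusted p = 0.0255). Summed over both copies the level was 42.1 to 59.9 CPM in uIRI+MSC, 43.2 to 73.1 CPM in uIRI, and 24.9 and 47.2 CPM in sham, so the sums overlapped. Their ratio was 2.22 to 2.58 in uIRI+MSC, 2.24 to 2.64 in uIRI, and 1.15 and 1.36 in sham.

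Among the cytosolic members that fell, Hsph1, which encodes the HSP70 exchange factor HSP105, changed most. It had 76.1, 71.4 and 92.1 CPM in uIRI+MSC, 46.6, 65.8 and 75.9 CPM in uIRI, and 212 and 203 CPM in sham. The sham libraries were more than 2 times any injured library, and the 2 injured groups overlapped. On the log2 scale it changed by -1.38 ± 0.21 in uIRI+MSC (adjusted p = 0.00117) and -1.73 ± 0.21 in uIRI (adjusted p = 0.00022, edgeR), and -0.87 and -1.07 with library size alone, still called.

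Hspa8, the gene of the constitutive HSC70, had 1116, 951 and 1307 CPM in uIRI+MSC, 558, 884 and 1076 CPM in uIRI, and 1771 and 1902 CPM in sham. Hsp90aa1, the gene of the inducible HSP90 isoform, had 280, 322 and 271 CPM in uIRI+MSC, 145, 287 and 210 CPM in uIRI, and 642 and 419 CPM in sham. Both were below sham in every injured library. In uIRI Hspa8 changed by -1.13 ± 0.28 (adjusted p = 0.00796) and Hsp90aa1 by -1.31 ± 0.29 (adjusted p = 0.00458, edgeR), and neither call held with library size alone (-0.47 and -0.64). The Hsp90aa1 call was lost without sham 1 (-0.94, adjusted p = 0.0599). In uIRI+MSC Hspa8 changed by -0.71 ± 0.28 and did not pass (adjusted p = 0.068), though it did without uIRI 1 (adjusted p = 0.0145), with DESeq2 (adjusted p = 0.0198) and with uIRI+MSC and sham alone in the fit (adjusted p = 0.0202). Hsp90aa1 changed there by -0.87 ± 0.29 (adjusted p = 0.038), lost with library size alone (-0.34) and without uIRI 3, any of uIRI+MSC 1, 2 or 3, or sham 1 (-0.94 to -0.49, adjusted p = 0.0559 to 0.335). The ratio of Hsp90aa1 counts to those of its ER paralogue Hsp90b1, which was not called, is free of scaling. It was 0.46 in all 3 uIRI+MSC libraries, 0.23 to 0.38 in uIRI, and 0.58 and 0.71 in sham. This pair was chosen with the results known. Between uIRI+MSC and uIRI Hsp90aa1 changed by 0.44 ± 0.26 and was not called (adjusted p = 0.371, edgeR).

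Dnajb1 (HSP40) ran at 37.8 to 49.2 CPM in uIRI+MSC, 42.5 to 54.3 CPM in uIRI, and 49.5 and 46.7 CPM in sham. Hsf1 had 33.4 to 36.9 CPM in uIRI+MSC, 34.1 to 37.0 CPM in uIRI, and 36.7 and 36.3 CPM in sham. The groups overlapped for both genes, with log2 changes between -0.17 and -0.02 against sham. Both turned with library size alone, to 0.62 for Dnajb1 and 0.64 for Hsf1 in uIRI.

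The mitochondrial chaperonin showed the deepest fall of any role group. Its median log2 change was -1.49 in uIRI+MSC and -1.85 in uIRI against sham, and -0.96 and -1.18 with library size alone. Hspd1 (HSP60) and Hspe1 (HSP10) lie head to head on chromosome 1, and their annotated spans overlap by 112 bases on opposite strands. For Hspd1 more than 1 start was searched. The matches below lay upstream of a start inside its annotated span, at the same bases as those of Hspe1. The heat shock element bound by HSF1 was searched on both strands as GAA, TTC and GAA, with 2 bases of any kind before and after TTC. Only exact matches counted, so imperfect elements, or those outside the windows, would be missed. Among the 33 members with a promoter, only Hspd1, Hspe1 and Hsph1 held a match, as did 0.608% of all promoters. The sites are shown, with fixed letters in capitals, because this is the motif that HSF1 is known to bind.
Hspd1 and Hspe1, first match (chr1:55088064-55088076, + strand): GAAccTTCcgGAA
Hspd1 and Hspe1, second match (chr1:55088059-55088071, - strand): GAAggTTCtaGAA
Hsph1 (chr5:149636288-149636300, + strand): GAActTTCcaGAA
The 250 bases before the start of Hspe1 (chr1:55087898-55088147, + strand) hold both matches, which overlap, in capitals.
Hspe1: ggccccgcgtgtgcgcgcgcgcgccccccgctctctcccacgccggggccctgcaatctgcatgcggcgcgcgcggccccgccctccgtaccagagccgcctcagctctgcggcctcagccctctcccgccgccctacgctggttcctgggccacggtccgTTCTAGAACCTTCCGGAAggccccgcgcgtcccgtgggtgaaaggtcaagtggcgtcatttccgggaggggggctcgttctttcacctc
Of the 4 other cytosolic members with a promoter, none held the match. They were Hspa1a, Hspa1b, Hspb1 and Dnajb1. In uIRI 2 of them rose and none fell, where 28.3% of all tested genes rose and 26.3% fell. Hspa8 and Hsp90aa1, which fell in uIRI, had no promoter to search. A link between the match and the calls was not tested.

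Hspd1 had 287, 310 and 255 CPM in uIRI+MSC, 139, 228 and 182 CPM in uIRI, and 1037 and 846 CPM in sham. The groups formed 3 tiers without overlap, with uIRI+MSC above uIRI and both far below sham. Its log2 change was -1.73 ± 0.22 in uIRI+MSC (adjusted p = 0.000569) and -2.36 ± 0.22 in uIRI against sham (adjusted p = 7.77e-05, edgeR), or 0.302-fold and 0.195-fold, and with library size alone it was -1.21 and -1.70, still called. The difference between uIRI+MSC and uIRI was 0.63 ± 0.20 and did not pass (adjusted p = 0.142). In FPKM Hspd1 was the highest of the 39 members in sham with 248, and averaged 108 in uIRI+MSC and 76.7 in uIRI.

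Hspe1 had 89.1, 77.1 and 31.7 CPM in uIRI+MSC, 51.4, 77.0 and 58.8 CPM in uIRI, and 178 and 136 CPM in sham. All injured libraries were below sham, and uIRI+MSC 3 was the lowest of all 8. The log2 change was -1.25 ± 0.38 in uIRI+MSC (adjusted p = 0.0266) and -1.33 ± 0.38 in uIRI (adjusted p = 0.0156, edgeR). The calls were lost with library size alone (-0.72 and -0.67) and without sham 1 (-1.01, adjusted p = 0.171, and -1.10, adjusted p = 0.11), and in uIRI+MSC without sham 2 (-1.40, adjusted p = 0.0607). The ratio of Hspd1 to Hspe1 counts was 3.22, 4.03 and 8.03 in uIRI+MSC, 2.71 to 3.10 in uIRI, and 5.82 and 6.21 in sham. The gene pair therefore did not keep 1 ratio across libraries.

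Because scaling factors cancel between genes of 1 library, role groups were also set against each other within each library, as the difference of their median log2 values relative to sham. The ATF4 and CHOP targets stood above the ER chaperones by 1.46, 1.12 and 1.02 in uIRI+MSC and by 1.24, 0.71 and 1.27 in uIRI, where the sham libraries lay at -0.15 and 0.15. The cytosolic heat shock genes stood above the ER chaperones by 0.18 to 0.58 in uIRI+MSC and 0.06 to 0.57 in uIRI, where sham lay at -0.20 and 0.20. The mitochondrial chaperonin stood below the ER chaperones by values of -0.65, -0.79 and -1.15 in uIRI+MSC and -1.47, -1.17 and -1.49 in uIRI, against 0.02 and -0.02 in sham. The medians of the ATF4 and CHOP targets and of the chaperonin thus lay apart from that of the ER chaperones in every injured library. The median of the cytosolic genes did so in some. In uIRI+MSC 3 the targets were at 0.08 relative to sham and the ER chaperones at -0.93, and Asns was the only target called. Sham values mirror each other because both libraries are centred on their own mean. On the scale of single genes, the ratio of Asns to Hspa5 counts was 0.0447 to 0.0499 in uIRI+MSC, 0.0222 to 0.0384 in uIRI, and 0.00877 and 0.00731 in sham. The 3 groups did not overlap in that ratio. It was chosen with the results known and sets a member called higher than sham against one called lower, so its distance from sham adds nothing new. Neither gene was called between uIRI+MSC and uIRI.

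**Figure D4:**
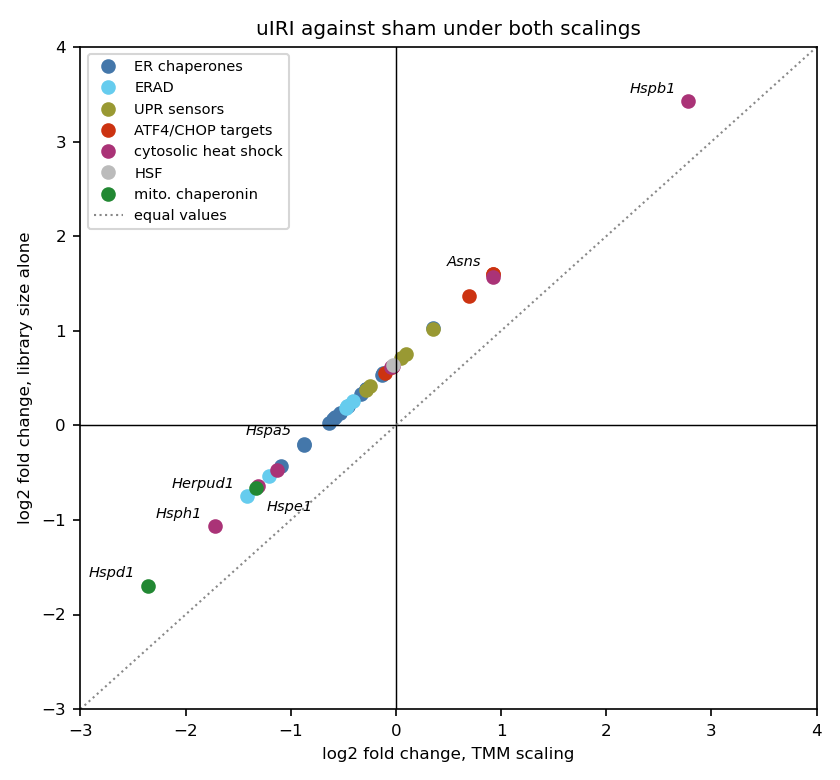
Log2 fold change of each member in uIRI against sham (n = 3 and 2) with TMM scaling (x axis) and with library size alone (y axis), coloured by role; the dotted line marks equal values. Every member lies above the dotted line by about the same amount, so that points left of the vertical and above the horizontal line, among them Canx at 0.09 and Hyou1 at 0.03 on the y axis, turn direction, while Hspd1, Hsph1 and Herpud1 stay below 0 and Hspb1 and Asns above 0 on both axes.

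Beyond the 39 members, 160 entries of 11 lists of related genes were followed, of which 158 were tested. None was called between uIRI+MSC and uIRI with edgeR. Of the genes named below DESeq2 called Shmt2 (0.78, adjusted p = 0.0146), Cth (0.99, adjusted p = 0.026), Sec23b (0.45, adjusted p = 0.0302) and Clpx higher there, and Eif2ak2 (-0.47, adjusted p = 0.0361) and Slc7a1 (-0.54, adjusted p = 0.0468) lower. Genes are named for a small p, not for the size of the change. Of all tested genes 26.3% fell and 28.3% rose in uIRI against sham, and 20.3% fell and 22.1% rose in uIRI+MSC. In the ER, 10 of 15 other ERAD genes fell in uIRI against sham and none rose (median -0.60), with 7 lower in uIRI+MSC. Among those that fell were Fam8a1 (-1.26 ± 0.17, adjusted p = 0.000433) and Nploc4 (-0.70 ± 0.11, adjusted p = 0.000986). Of the 15, 1 fell and 3 rose with library size alone. Of 22 other folding and glycosylation genes 6 fell and 2 rose, among them Sil1 (-1.06 ± 0.19), Stt3b (-0.68 ± 0.13) and Erp44 (-0.84 ± 0.16). Of 20 translocation and export genes 6 fell and 1 rose, among them Sec62 (-1.14 ± 0.16) and Sec23b (-1.12 ± 0.14), while Kdelr3, the KDEL receptor that retrieves escaped ER proteins, rose by 3.42 ± 0.37. With library size alone 11 rose and 0 fell in the folding list and 9 rose and 2 fell in the translocation list, where 54.5% of all tested genes rose. Of 14 other regulators of the response tested, 3 rose and 4 fell, among them Eif2ak2 (PKR) at 1.17 ± 0.16, Eif2ak1 (HRI) at -0.91 ± 0.12 and Tmbim6, an inhibitor of IRE1, at -1.78 ± 0.25. The split was 9 higher and 1 lower with library size alone.

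The further ATF4 targets did not move as 1 set. Of all tested genes 28.3% rose and 26.3% fell in uIRI against sham. Of 10 regulators and secreted factors tested, 6 rose and 2 fell in uIRI, among them Atf3 (4.88 ± 0.40, adjusted p = 4.95e-05), Stc2 (2.86 ± 0.33, adjusted p = 0.000182) and Atf5 (1.07 ± 0.19, adjusted p = 0.00146). Atf3 averaged 19.7 ± 4.22 CPM in uIRI+MSC, 30.8 ± 7.6 CPM in uIRI and 1.03 ± 0.495 CPM in sham (SD, n = 3, 3 and 2). Of 6 transporters 4 rose and 1 fell, among them Slc7a5 (2.21 ± 0.27) and Slc7a1 (1.39 ± 0.19), importers of large neutral and cationic amino acids. Slc7a11, the cystine importer, had 32, 25 and 34 counts in uIRI+MSC, 243, 90 and 48 counts in uIRI, and 0 and 1 count in sham. Of 10 enzymes of amino acid and one-carbon supply 4 rose and 4 fell. Aldh18a1, the proline synthesis enzyme, rose by 2.58 ± 0.18 (adjusted p = 2.96e-05), whereas Cth, which makes cysteine, fell by 3.2 ± 0.34 (adjusted p = 0.000127) and Shmt2, the mitochondrial serine hydroxymethyltransferase, fell by 2.53 ± 0.23 (adjusted p = 7.19e-05). None of 10 tRNA synthetases rose and 2 fell, Aars (-0.66 ± 0.17) and Nars (-0.51 ± 0.15), while Eprs was at -0.34 ± 0.14 and not called; both falls turned with library size alone, where 4 of the 10 rose. With library size alone 7, 5 and 5 of the regulators, transporters and enzymes rose, where 54.5% of all tested genes did.

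In the cytosol 14 of 31 other chaperones and HSF1 targets fell in uIRI and 2 rose, where 26.3% of all tested genes fell and 28.3% rose. Dnaja1 (-1.70 ± 0.14, adjusted p = 4.61e-05) and Dnaja4 (-1.61 ± 0.12, adjusted p = 3.59e-05), both HSP70 co-chaperones, fell, and Hspb8, a partner of BAG3 in selective autophagy, rose by 2.09 ± 0.18 (adjusted p = 6.4e-05). The split was 11 higher and 2 lower with library size alone, where 54.5% of all tested genes rose and 12% fell. Of the 8 subunits of the CCT chaperonin, which folds actin and tubulin, 4 fell and none rose, among them Cct6a (-0.78 ± 0.15), Tcp1 (-0.62 ± 0.14) and Cct8 (-0.54 ± 0.17). Tcp1 and Cct8 turned with library size alone, where 3 of the 8 rose.

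In the mitochondrion 10 of 12 other chaperones and proteases fell and 1 rose in uIRI against sham, and the same counts were reached in uIRI+MSC. Of all tested genes 26.3% fell in uIRI and 20.3% in uIRI+MSC. Clpx, the unfoldase of the ClpXP protease, fell by 2.35 ± 0.22 (adjusted p = 8.21e-05), Dnaja3 by 1.5 ± 0.15 (adjusted p = 0.000114) and Afg3l2, a protease of the inner membrane, by 1.33 ± 0.14 (adjusted p = 0.000111). Scaled by library size alone 9 still fell and 1 rose in uIRI, and 7 fell and 1 rose in uIRI+MSC. Under that scaling 12% of all tested genes fell in uIRI and 8.16% in uIRI+MSC. Clpx averaged 106 ± 3.72 CPM in uIRI+MSC, 57.9 ± 15.4 CPM in uIRI and 295 ± 57.5 CPM in sham (SD, n = 3, 3 and 2), and its difference between uIRI+MSC and uIRI, 0.87 ± 0.20, did not pass (adjusted p = 0.111) but did with DESeq2 (0.85, adjusted p = 0.00652). The share of mitochondrial DNA transcripts and the proximal tubule markers were also lower in these libraries than in sham, and their part in the fall was not tested.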

How the data were processed

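For every gene the deposited table lists counts and FPKM per library, made by the authors before deposit, per the file headers. The counting program, its strand setting and its treatment of reads with several matches are not stated in the labels and headers. The submitters' processing notes name GRCm38, HISAT2 2.0.4, Bowtie2 2.2.6, SAMtools 1.9, StringTie 1.3.3b and edgeR 3.2.0, without their roles. Library preparation per the labels isolated messenger RNA from total RNA. Counts entered all tests; deposited FPKM served only to order genes per length.

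Genes were kept by filterByExpr (minimum count 10), scaled by TMM and fitted over all 8 libraries in edgeR 4.0.16 (R 4.3.3; glmQLFit with legacy=TRUE, 5 residual degrees of freedom). The SE was taken as the absolute log2 change divided by sqrt(F). The alternatives were DESeq2 1.42.0, limma-voom (limma 3.58.1), other scalings, filters and designs, and leaving out each library. CPM are counts per 1e6, and a prior count of 2 was added for per-library log2 values. Gene spans were compared with GENCODE M21. The fit was tested on simulated data with 200 changed genes, far fewer than were called here, so this did not test the scaling. For uIRI against sham it called 74.4% and 84% of true log2 changes of -2 and 2. At -1 and 1 it called 18.8% and 20%. With so few changed genes the Benjamini-Hochberg adjustment asks for a smaller p than in the data themselves. These shares therefore do not give the chance of a call for the members. In uIRI against sham Sel1l (-0.41 ± 0.13) and Canx (-0.58 ± 0.15) were called. Members with a wider SE, such as Ddit3 (0.70 ± 0.29) and Trib3 (0.93 ± 0.54), were not. A member not called may still have changed. The members, lists and alternatives were chosen with earlier results of these data known. Members called in any comparison, with a group mean of at least 1 CPM, were given in every library, and from each further list up to 3 genes with the smallest p in the comparisons of uIRI with sham or of uIRI+MSC with uIRI. One gene that this rule names is not reported here. Values singled out for other members were chosen after they were seen. Figures used matplotlib 3.10.9.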

Additional observations from a re-analysis of the deposited data

How the results depend on the processing

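Median-of-ratios factors changed no member's call in any of the 3 comparisons, whereas library size alone changed most. With library size alone, members called higher and lower numbered 15 and 5 in uIRI against sham and 9 and 4 in uIRI+MSC against sham, and limma-voom called 1 higher in uIRI. DESeq2 called 1 higher between uIRI+MSC and uIRI. Under library size alone the direction turned, among members and other named genes, in uIRI+MSC against sham for Hsp90b1 (0.16), Calr (0.14), Canx (0.0270), Pdia3 (0.29), Pdia4 (0.20), Pdia6 (0.35), Sdf2l1 (0.20), Sel1l (0.17), Syvn1 (0.0578), Dnajb9 (0.28), Ern1 (0.39), Atf6 (0.35), Xbp1 (0.41), Ppp1r15a (0.49), Hspa1a (0.43), Dnajb1 (0.35), Hsf1 (0.46), Tcp1 (0.0993), Cct8 (0.0448), Aars (0.11), Nars (0.22) and Eprs (0.41), and in uIRI against sham for Hsp90b1 (0.39), Calr (0.34), Canx (0.0902), Pdia3 (0.39), Pdia4 (0.54), Pdia6 (0.55), Dnajb11 (0.0677), Hyou1 (0.0277), Creld2 (0.13), Manf (0.21), Sel1l (0.26), Syvn1 (0.21), Dnajb9 (0.19), Atf6 (0.38), Xbp1 (0.42), Chac1 (0.62), Ppp1r15a (0.55), Hspa1a (0.63), Dnajb1 (0.62), Hsf1 (0.64), Tcp1 (0.0539), Cct8 (0.12), Aars (0.00926), Nars (0.16) and Eprs (0.33).

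Leaving out 1 library at a time gave 1 to 4 members higher and 7 to 18 lower in uIRI against sham, with 1 higher without uIRI 3 or uIRI+MSC 2, and 2 to 3 higher and 4 to 15 lower in uIRI+MSC against sham, the fewest falls without sham 1. Where sham is left with 1 library, the fit takes its spread from the other groups. Deviations of same-numbered libraries correlated at -0.209 to 0.111, and those of differently numbered libraries at -0.201 to 0.212. The deviations of the 2 sham libraries mirror each other, so this check cannot tell whether the replicate numbers pair the samples. With the replicate block 2 members were higher and 11 lower in uIRI against sham, 2 and 12 in uIRI+MSC against sham, and 0 and 0 between uIRI+MSC and uIRI.

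With 2 sham libraries, and replicates differing by 18.7 to 72.9 times the variance of counting, spread between libraries and not depth limits the abundant members. Trib3, Chac1 and Slc7a11, at a few CPM, are also limited by counting. The cause of the differences between settings was not tested.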
